A study of Homo sapiens with 6 samples.

Results

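The unfolded protein response of the endoplasmic reticulum (ER) was followed through 10 genes: HSPA5, HSP90B1, XBP1, DNAJB9, HERPUD1, SDF2L1, PDIA4, CALR, EDEM1 and ATF6. They were chosen by name out of 60107 gene IDs in the count table, and were set beside genes of amino acid shortage. RNA came from H9, a human embryonic stem cell line in wide use, on day 9 of a 10-day protocol that turns them into nephron progenitor cells, which build the filtering units of the kidney. In 3 libraries the cells had complete medium, and in the other 3 they had medium lacking glutamine, an amino acid that feeds carbon and nitrogen metabolism, from day 0 through day 9. All 6 libraries share 1 cell line, 1 protocol and 1 date in their titles. The labels do not say whether the replicates of a group were separate cultures, so p-values measure only the spread between these samples.

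The ER folds secreted and membrane proteins, and unfolded protein that builds up there is sensed by 3 membrane proteins. ATF6 is cut in the Golgi and its freed part enters the nucleus as a transcription factor. IRE1 (gene ERN1) splices XBP1 mRNA so that it encodes an active factor, and both factors raise chaperones, folding enzymes and the machinery that removes misfolded protein. PERK (gene EIF2AK3) instead slows translation and favours ATF4, the factor that GCN2, a kinase sensing uncharged tRNA, also favours when amino acids run short. Genes of ATF4 therefore answer to both kinds of stress, whereas ER chaperones are textbook targets of ATF6 and XBP1.

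The factors of the ER response bind known promoter elements, which are shown because they are the known binding sites of the response and 6 of the 10 genes carry one. The ER stress element, ERSE, is CCAAT, then any 9 bases, then CCACG, and a compact form, ERSE-II, is ATTGG, any 1 base, then CCACG. All 10 genes matched the RefSeq promoter table, with 12 start sites between them, and the 250 bases upstream of each start were searched on both strands. Exact ERSE matches lay upstream of HSPA5, HSP90B1, XBP1 and CALR, and ERSE-II matches upstream of HERPUD1 and SDF2L1. In the lines that follow, the fixed bases of each element are in capitals and 5 bases are kept on each side. Sequences are from RefSeq on GRCh38.p14, 5′ to 3′, each on the strand that reads in the direction of the element.
HSPA5 ERSE, chr9:125241386-125241414, minus strand: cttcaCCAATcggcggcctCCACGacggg
HSP90B1 first ERSE, chr12:103930211-103930239, plus strand: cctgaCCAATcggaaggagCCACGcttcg
HSP90B1 second ERSE, chr12:103930316-103930344, minus strand: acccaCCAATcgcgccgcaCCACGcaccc
XBP1 ERSE, chr22:28800598-28800626, minus strand: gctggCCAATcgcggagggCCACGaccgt
CALR ERSE, chr19:12938379-12938407, minus strand: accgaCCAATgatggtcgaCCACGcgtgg
HERPUD1 ERSE-II, chr16:56932020-56932040, plus strand: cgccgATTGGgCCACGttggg
SDF2L1 ERSE-II, chr22:21642109-21642129, minus strand: ttttgATTGGtCCACGcttcc

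These elements are rare among promoters at large. Of 35116 RefSeq upstream windows of the same length, 0.074% held an exact ERSE and 0.0513% an ERSE-II. HSP90B1 had 2 ERSE matches, and its window was the only 1 of the 35116 with more than 1. Both lie inside the longer HSP90B1 gene model of GENCODE 29, downstream of its first base. The partial motif CCACG alone, which also lies inside every ERSE and ERSE-II, was in 33.5% of windows and upstream of 9 of the 10 genes, ATF6 being the exception. A further form, the UPR element core (TGACG followed directly by TGG), was in 0.612% of windows and upstream of none of the 10 genes. Other ER genes held such elements too: of 20 other ER chaperones and folding enzymes with a window, CANX, CRELD2, ERO1B and PDIA6 held an ERSE and HYOU1 an ERSE-II, and 3 held the UPR element core. Of 25 translocation genes 1, SERP1, held an ERSE. A match is a description of the letters and shows no binding, and a window without one says nothing about the factor. The 10 genes were chosen as known genes of this response, so matches among them are not independent evidence. Enrichment was not tested.

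HERPUD1, which encodes a membrane protein of ER-associated degradation, also carried TGATGCAA, a form of the amino acid response element that ATF4 is known to bind. That form was in 0.772% of all windows, upstream of no other gene of the 10, and upstream of AARS1 and CHAC1 among 26 amino acid response genes with a window and of CEBPG and PPP1R15B among 10 of the PERK and ATF4 arm. The HERPUD1 stretch is shown with both elements in capitals, the amino acid response element read from its other strand. The HSPA5 stretch has its exact ERSE match in capitals, and each stretch is on the strand of its gene. Forms that differ from an element by a base were not searched, so counts of exact matches do not rank the genes.
HERPUD1, chr16:56931942-56932045, plus strand: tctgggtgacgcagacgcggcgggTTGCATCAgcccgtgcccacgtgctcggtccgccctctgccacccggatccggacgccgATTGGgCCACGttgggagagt
HSPA5, chr9:125241364-125241503, minus strand: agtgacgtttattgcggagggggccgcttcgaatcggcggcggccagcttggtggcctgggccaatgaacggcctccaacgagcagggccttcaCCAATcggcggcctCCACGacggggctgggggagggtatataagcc

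**Figure D1:**
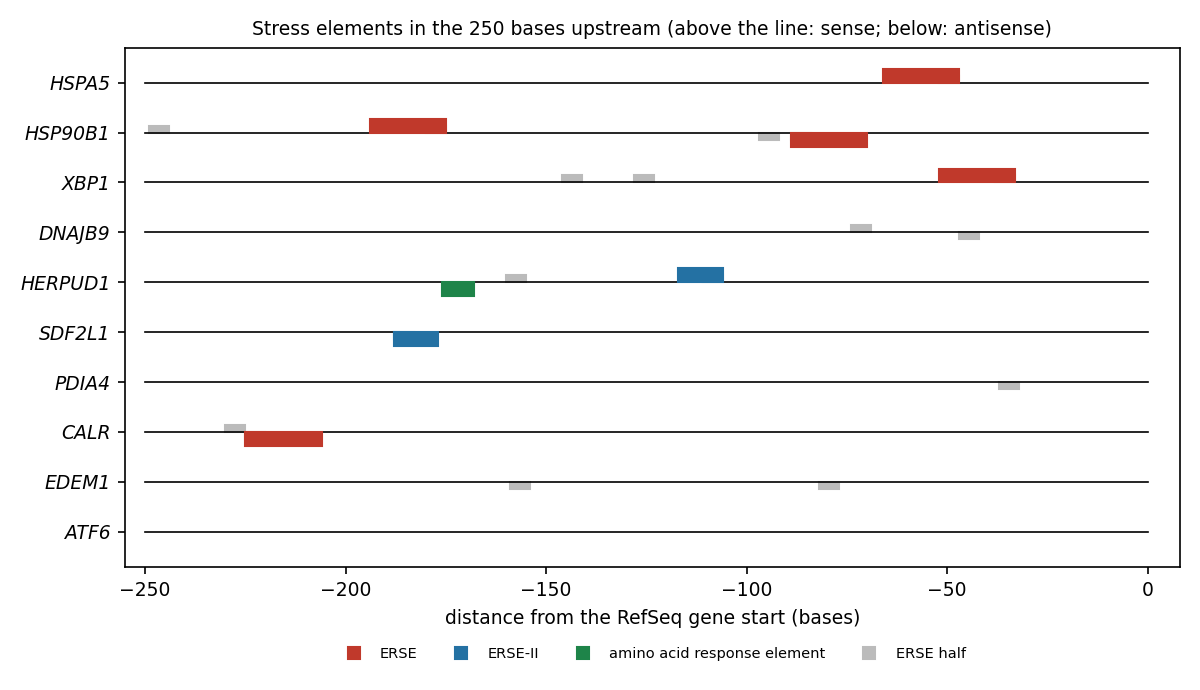
Exact matches to ER stress elements in the 250 bases upstream of the first RefSeq start of each of the 10 genes, by distance from the start in bases. Red boxes are ERSE, blue ERSE-II, green the amino acid response element and small grey ones the partial motif CCACG. Boxes above a line read along the gene and boxes below it read on the other strand. ERSE sits upstream of HSPA5, HSP90B1 (2 matches), XBP1 and CALR, and ERSE-II upstream of HERPUD1 and SDF2L1.

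The libraries held 78220507 to 84746566 counts. Replicate 1 with glutamine stood apart: across genes, which are not independent replicates, its Pearson's r of log2 CPM (counts scaled to library size) was 0.9758 to 0.9762 with its own group and 0.9908 to 0.9927 with the other. Results are therefore also given without it. That choice was made from the values of these same libraries, so p-values without it are descriptive and not independent evidence. All 11 nephron progenitor markers passed 1 CPM in some library. Their summed level was 810 to 1620 CPM with glutamine, with replicate 1 at the top, and 1510 to 2020 without. The list went both ways, with log2 fold changes above 0 for 7 of the 11 and below 0 for 4. All 5 endothelial markers passed 1 CPM, and they summed to 33.4 to 94 CPM with and 20.2 to 26.9 without. A single marker held most of that sum in every library. Log2 fold changes were below 0 for 4 of the 5 and above 0 for 1. All 7 markers of somites and paraxial mesoderm passed too, at summed levels of 181 to 299 CPM with and 175 to 260 without. Of these, 2 had log2 fold changes above 0 and 5 below. Of 7 markers each, 4 pluripotent, 4 neural and 1 endoderm marker passed. Pluripotent markers summed to 359 to 466 CPM with and 358 to 432 without, and neural ones to 87.7 to 99.8 and 83.6 to 120. Of the pluripotent list, POU5F1, NANOG and TDGF1 reached at most 0.151, 0.0128 and 0.0233 CPM in any library. The other 4 pluripotent markers were tested, with log2 fold changes above 0 for 2 and below 0 for 2. Those of the 7 neural markers were above 0 for 3 and below for 4, so flat sums hide opposite shifts. Of 8 markers of professional secretory cells, whose ER is large, 4 passed 1 CPM, and they summed to 6.17 to 10.9 CPM with and 7.63 to 9.35 without, and INS was at 0 counts in every library. The part of these shifts in the results on ER genes was not tested.

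Of the 10 genes, 9 had reads and passed the filter on low counts. XBP1 (ENSG00000100219, chromosome 22, 28794555 to 28800597, minus strand) is listed at 0 in all 6 libraries, and no level or direction is given for it. The table lists 1446 of 19628 protein-coding genes, or 7.37%, at 0 in every library. Among them is EEF1G, a translation elongation subunit that all cells use, named after its value was seen. A listed 0 can thus be a gene that was not counted rather than one that was silent. The pseudogene XBP1P1 held 10 to 22 counts, and whether these reads came from XBP1 was not tested. Splicing of XBP1 mRNA, the direct readout of IRE1, was not measured.

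No gene of the 10 passed an adjusted p of 0.05 when all 6 libraries were compared, without against with glutamine. EdgeR's quasi-likelihood test, Benjamini-Hochberg adjusted over 22613 genes, called 1 gene in all, or 0.00442%. At an adjusted p under 0.1 it counted 3 of the 9 tested genes, SDF2L1, PDIA4 and HERPUD1, all higher without glutamine, where 14.5% of all genes passed, 7.3% higher and 7.23% lower. None of the 9 passed 0.1 when any 1 library other than replicate 1 with glutamine was left out, and HERPUD1 did not with no filter on low counts (edgeR adjusted p 0.133). At an unadjusted p under 0.05 there were 4 higher and 0 lower of the 9, against 3334 higher and 3384 lower of all genes. The groups did not overlap for 4 of the 9, all higher (DNAJB9 with the 3 named), where 34.2% of all genes did not overlap, 17.3% higher and 16.9% lower. Their median log2 fold change was 0.23, with 8 of 9 above 0, and that of all genes was 0.

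The gene with the largest fold among the 9 was SDF2L1, an ER-resident partner of HSPA5 that helps keep client proteins from aggregating (ENSG00000128228, chromosome 22, 21642261 to 21644298, plus strand in GENCODE 29). It also had the fewest counts, with 502, 348 and 373 counts in replicates 1, 2 and 3 with glutamine and 872, 708 and 590 without. In CPM these were 6.19, 4.46 and 4.75 with and 10.1, 9.04 and 7.51 without. Every library without glutamine lay above every library with it, and replicate 1 was the highest of the 3 in each group. Means were 5.13 ± 0.927 with and 8.89 ± 1.32 CPM without (SD, n = 3 each). This was a log2 fold change of 0.79 (SE 0.17, 95% interval 0.39 to 1.2, unadjusted for the number of genes), or 1.73-fold, and the adjusted p from edgeR was 0.0706.

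PDIA4, a protein disulfide isomerase that forms and rearranges disulfide bonds in the ER, was next in size (ENSG00000155660, chromosome 7, 149003062 to 149028641, minus strand). It was at 259, 203 and 230 CPM with glutamine and at 292, 328 and 322 CPM without. The groups did not overlap, and replicate 1 with glutamine was the nearest of its group to the libraries without. From 231 ± 27.9 to 314 ± 19.7 CPM (SD, n = 3 each), the log2 fold change was 0.44 (SE 0.10), or 1.36-fold, with an edgeR adjusted p of 0.0721.

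HERPUD1 (ENSG00000051108, chromosome 16, 56932048 to 56944863, plus strand), the gene with both an ERSE-II and an amino acid response element form upstream, was at 30.2, 29.2 and 34.3 CPM with glutamine and at 35.4, 46.3 and 43.2 CPM without. Replicate 1 without glutamine, at 35.4, was just above the highest library with it. Group means of 31.2 ± 2.73 and 41.6 ± 5.59 CPM (SD, n = 3 each) gave a log2 fold change of 0.41 (SE 0.12), or 1.33-fold, with an edgeR adjusted p of 0.0891. Its promoter stretch holds letters of elements of both stress pathways, and the part of either in its level was not tested.

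DNAJB9, a co-chaperone of HSPA5 known to hold IRE1 in check (ENSG00000128590, chromosome 7, 108569568 to 108574850, plus strand), was at 29.9, 30.0 and 31.0 CPM with glutamine and at 31.3, 41.1 and 42.1 CPM without. Replicate 1 without glutamine lay just above the libraries with it and far below the other 2 of its group. With means of 30.3 ± 0.583 and 38.2 ± 5.95 CPM (SD, n = 3 each), the log2 fold change of 0.33 (SE 0.12) did not pass, at an edgeR adjusted p of 0.128. Exons of DNAJB9 overlap those of THAP5 and PNPLA8 on the other strand, which have counts of the same size, and the strand setting of the counting is not given in the sources used here. The log2 fold changes of those neighbours were -0.06 (SE 0.09) for THAP5 and -0.14 (SE 0.12) for PNPLA8.

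**Figure D2:**
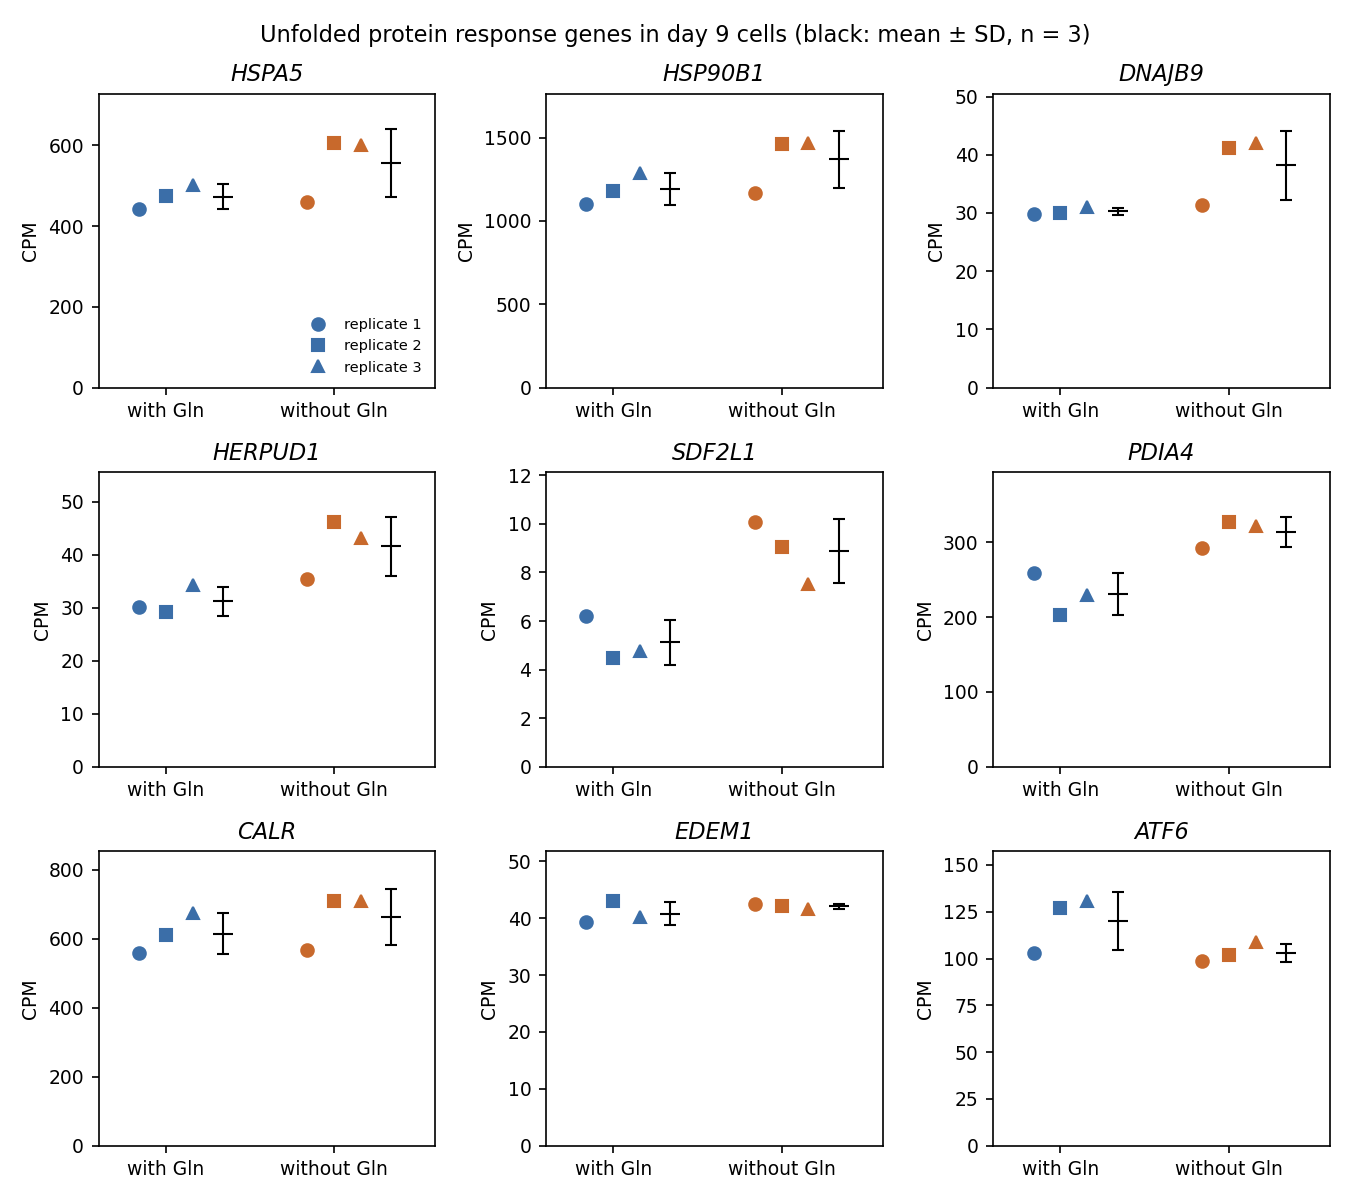
CPM of the 9 tested genes in each library, by group, with black bars for the mean ± SD of 3 libraries and axes from 0. SDF2L1, PDIA4, HERPUD1 and DNAJB9 do not overlap between groups, and in HSPA5, HSP90B1, CALR and DNAJB9 replicate 1 without glutamine lies within or just above the range of the libraries with it.

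The main chaperones of the ER lumen overlapped between groups. HSPA5, or BiP, the Hsp70 chaperone whose release from the sensors is part of their activation (ENSG00000044574, chromosome 9, 125234853 to 125241330, minus strand), was at 442, 475 and 502 CPM with glutamine and at 460, 607 and 601 CPM without. Replicates 2 and 3 without glutamine were above all libraries with it, and replicate 1 was not. At 473 ± 30.1 and 556 ± 83.4 CPM (SD, n = 3 each), its log2 fold change was 0.23 (SE 0.12, 95% interval -0.05 to 0.51), with an edgeR adjusted p of 0.231.

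HSP90B1, or GRP94, the Hsp90 of the ER (ENSG00000166598, chromosome 12, 103930107 to 103953645, plus strand), had the same layout. Its 1100, 1180 and 1290 CPM with glutamine stood against 1170, 1460 and 1470 CPM without, for means of 1190 ± 97.2 and 1370 ± 171 (SD, n = 3 each). Its log2 fold change was 0.20 (SE 0.11, 95% interval -0.07 to 0.46), with an edgeR adjusted p of 0.269. Its pseudogenes HSP90B2P and HSP90B3P held at most 105 and 17 counts against at least 89303 for HSP90B1.

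CALR, calreticulin, a calcium-binding chaperone of glycoproteins (ENSG00000179218, chromosome 19, 12938578 to 12944489, plus strand), was at 558, 612 and 676 CPM with glutamine and at 568, 709 and 711 CPM without. Here too replicate 1 without glutamine fell within the range of the other group. Means were 615 ± 58.9 and 663 ± 81.9 CPM (SD, n = 3 each), for a log2 fold change of 0.11 (SE 0.11, 95% interval -0.16 to 0.38) and an edgeR adjusted p of 0.551. The intervals of HSPA5, HSP90B1 and CALR include 0 and also 0.33, the log2 fold change of DNAJB9, and differences between genes were not tested.

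EDEM1, a lectin-like protein that passes misfolded glycoproteins on to degradation (ENSG00000134109, chromosome 3, 5187646 to 5219957, plus strand), was at 39.3, 43.1 and 40.2 CPM with glutamine and at 42.5, 42.2 and 41.6 CPM without. Its log2 fold change was 0.04 (SE 0.07, 95% interval -0.12 to 0.21), the narrowest interval of the 9, with an edgeR adjusted p of 0.703. Its sign changed to -0.001 under upper quartile scaling. EDEM1 is a textbook target of spliced XBP1.

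ATF6, the sensor and transcription factor itself (ENSG00000118217, chromosome 1, 161766294 to 161964070, plus strand), was the only 1 of the 9 with a log2 fold change below 0. It was at 103, 127 and 131 CPM with glutamine and at 98.8, 102 and 109 CPM without. Replicate 1 with glutamine lay among the libraries without, and the groups overlapped there. Group means of 120 ± 15.4 and 103 ± 5.01 CPM (SD, n = 3 each) gave a log2 fold change of -0.22 (SE 0.10, 95% interval -0.47 to 0.03), with an edgeR adjusted p of 0.202. ATF6 is activated by cutting of the protein, which mRNA counts do not show.

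**Figure D3:**
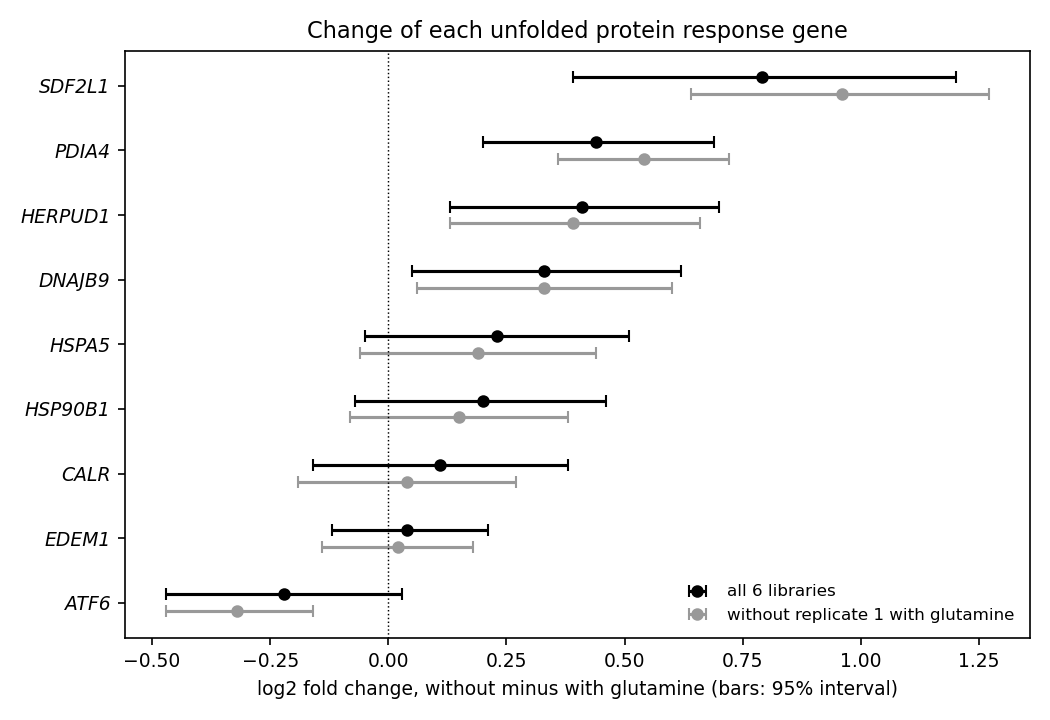
Log2 fold change of each tested gene, without minus with glutamine, with 95% intervals unadjusted for the number of genes, from all 6 libraries (black) and without replicate 1 with glutamine (grey). The 4 intervals above 0 with all libraries are those of SDF2L1, PDIA4, HERPUD1 and DNAJB9, and that of ATF6 lies below 0 only in grey.

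Without replicate 1 with glutamine, edgeR called 4 of the 9 genes at an adjusted p under 0.05, where 41.3% of all genes were called, 22.3% higher and 19% lower. SDF2L1 (log2 fold change 0.96, adjusted p from edgeR 0.000529), PDIA4 (0.54, 0.000643) and HERPUD1 (0.39, 0.0247) were higher without glutamine, and ATF6 (-0.32, 0.00498) was lower. The 4 calls among 9 are thus close to the share of all genes called in that comparison. With DNAJB9 (adjusted p from edgeR 0.0536), 5 of the 9 passed 0.1, against 49.3% of all genes, 26% higher and 23.3% lower. There 4 were higher and 1 lower with no overlap, against 63.4% of all genes, 32.1% higher and 31.3% lower. HSPA5, HSP90B1, CALR and EDEM1 were not called there either, at log2 fold changes of 0.19, 0.15, 0.04 and 0.02. In 8 of the 9 genes replicate 1 with glutamine was nearer its own group than the group without, ATF6 being the exception. DESeq2, with all 6 libraries, called SDF2L1 (adjusted p 0.000732), PDIA4 (0.0086) and HERPUD1 (0.0367), all higher, where it called 7.07% of the 43005 genes it fitted, 3.81% higher and 3.26% lower. That base includes low-count genes that the edgeR filter, which kept 22613, left out. The DESeq2 share is thus lowered by genes unlike the 9 and is not comparable with the edgeR shares.

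A second library bears on the chaperones. Replicate 1 without glutamine was the lowest of its group in 7 of the 9 genes, against 36.4% of all genes tested. Replicate 1 with glutamine was likewise the lowest of its group in 6 of the 9, HSPA5, HSP90B1, CALR and DNAJB9 among them, against 41.1% of all genes. Replicate 1 without glutamine was the lowest in 16 of 22 other ER chaperones and folding enzymes and in 26 of 30 genes of ER translocation and the early secretory pathway, and also in 21 of 31 amino acid response genes and 10 of 15 heat shock genes. Without it the log2 fold changes were 0.36 for HSPA5, 0.30 for HSP90B1, 0.21 for CALR and 0.46 for DNAJB9, none called, with edgeR adjusted p from 0.12 to 0.25. SDF2L1 was the opposite, with that library the highest of its group and a log2 fold change of 0.69 without it.

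Levels of different genes are comparable only per length. TPM, a level scaled to both length and depth, was computed from counts and the merged length of all exons of a gene in GENCODE 29. Annotated exons that the cells do not use lower it, so levels and ranks depend on that length. TPM ran from 1070 to 1350 for HSP90B1 and from 938 to 1140 for CALR. HSPA5 was at 517 to 675 TPM and PDIA4 at 275 to 435 TPM. These 4 genes kept ranks 1 to 4 in all 6 libraries. ATF6 (56.2 to 71.1 TPM) and DNAJB9 (46.5 to 63.9 TPM) shared ranks 5 and 6, with ATF6 higher in 4 of 6 libraries. SDF2L1 (18.0 to 41.3 TPM), HERPUD1 (25.1 to 39.0 TPM) and EDEM1 (25.3 to 28.2 TPM) filled ranks 7 to 9 in an order that changed between libraries. The 9 genes with reads together held 0.265% to 0.286% of counts with glutamine and 0.275% to 0.335% without.

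The other ER chaperones and folding enzymes, 22 genes, centred on a log2 fold change of 0.17 (median), with 17 above 0 and 5 below. None was called at 0.05, 5 passed 0.1, all higher, where 14.5% of all genes passed and 7.3% were higher. The groups did not overlap for 8, all higher, against 34.2% of all genes in either direction and 17.3% higher. DNAJC3, an ER co-chaperone also known as an inhibitor of PERK, was at 49.4, 43.4 and 45.3 CPM with glutamine and at 58.1, 68.7 and 68.4 CPM without (log2 fold change 0.50, SE 0.09, adjusted p from edgeR 0.0682). CRELD2, an ER stress-inducible folding factor, held 16.5, 12.9 and 13.3 CPM in the libraries with glutamine and 18.7, 21.7 and 20.2 in those without (log2 fold change 0.50, SE 0.12, adjusted p from edgeR 0.0742). Both separated the groups. PDIA5, with a larger log2 fold change of 0.59, did not (adjusted p 0.184): replicate 1 with glutamine, at 14 CPM, lay with the libraries without and far from the 7.38 and 6.94 CPM of its group. The lowest of the list were DNAJC10 (-0.08), SIL1 (-0.10) and POFUT1 (-0.16), none past either threshold.

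ER-associated degradation, which pulls misfolded proteins back to the cytosol for the proteasome, had a median of 0.10 over 21 genes, with 2 past 0.1, both higher, a smaller share than the 14.5% of all genes. Those were UFD1, a cofactor of the VCP extraction motor, at 0.40 and HM13, a protease of the ER membrane named after its value was seen, at 0.22 (adjusted p from edgeR 0.0821 and 0.0874). DERL3, a channel component and known target of the response, was at 9.97, 4.67 and 5.21 CPM with glutamine and at 10.7, 12.0 and 10.6 CPM without. Replicate 1 with glutamine sat close to the libraries without, and the log2 fold change of 0.74 (SE 0.28) did not pass, at an edgeR adjusted p of 0.136. UBE2G2 and MAN1B1, among the lowest of the list, were at -0.06 and -0.16. ER translocation and the early secretory pathway had a median of 0.07 over 30 genes, with 2 past 0.1 higher and 1 lower, again a smaller share than the 14.5% of all genes. SEC11C and SPCS2, subunits of signal peptidase, were the higher ones at 0.45 and 0.36, and KDELR3, a receptor that returns ER proteins from the Golgi, the lower one at -0.40 (adjusted p from edgeR 0.0689, 0.0941 and 0.0977). SEC24D had the largest log2 fold change of that list, 0.59 (adjusted p 0.109).

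The sensors and regulators upstream of these genes had a median of 0.08 over 12 genes, and none passed 0.1, against 14.5% of all genes. The groups did not overlap for 1 of the 12, which was lower, against 34.2% of all genes, 17.3% higher and 16.9% lower. ERN1 was at 16.6, 15.0 and 14.2 CPM with glutamine and at 14.4, 13.9 and 15.0 CPM without, a log2 fold change of -0.08 (SE 0.10). EIF2AK3 had a log2 fold change of 0.14 (SE 0.08), and the proteases that cut ATF6, MBTPS1 and MBTPS2, had 0.08 and -0.12. ATF6B, the close relative of ATF6, was at 72.5, 47.9 and 48.9 CPM with glutamine and at 71.6, 73.5 and 72.0 CPM without. ATF6B and ATF6 thus differed from the other 2 libraries of their group in replicate 1 with glutamine, in opposite directions. Without that library the log2 fold change of ATF6B was 0.58 (adjusted p from edgeR 0.000114), against 0.36 (0.183) with all 6. The library was left out because of its values, so the smaller p is not independent evidence.

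Genes of amino acid shortage, the contrast for which the ER genes were chosen, had 31 members tested and a median log2 fold change of 0.24, close to the 0.23 of the ER genes. Their spread was wider, from -1.10 to 1.78 against -0.22 to 0.79. Of the 31, 1 was called at 0.05 (SLC7A11), 14 passed 0.1, all higher, against 14.5% of all genes and 7.3% higher, and 20 did not overlap between groups, all higher, against 34.2% and 17.3%. The 3 highest were CHAC1 (1.78), SLC7A11 (1.35) and SLC1A4 (1.21), and the 3 lowest were STC2 (-0.33), VLDLR (-0.78) and DDIT4 (-1.10), which overlapped between groups. Without replicate 1 with glutamine these last 3 were lower and called. The share past 0.1 was 3 of 9 for the ER genes and 14 of 31 here, and whether the lists differ was not tested. These lists were made with earlier results of the same libraries known, so their direction is not independent evidence.

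The PERK and ATF4 arm, which lies between both kinds of stress, had a median of 0.05 over 11 tested genes of 12, with 3 past 0.1, all higher, against 14.5% of all genes and 7.3% higher. CEBPB (0.80), ATF4 (0.33) and CEBPG (0.26), transcription factors of the arm, were those 3, with edgeR adjusted p of 0.0721, 0.0772 and 0.0887. DDIT3, or CHOP, the factor linked to death under lasting ER stress, was at 5.94, 6.39 and 7.34 CPM with glutamine and at 5.84, 7.01 and 7.16 CPM without, a log2 fold change of 0.02 (SE 0.14) that turned to -0.04 without replicate 1 with glutamine. PPP1R15A, or GADD34, which restores translation, had 0.16 (SE 0.10), and ATF3 0.06 (SE 0.35). TNFRSF10B, a death receptor induced by CHOP, was at -0.51 (adjusted p 0.107). None of these 4 passed 0.1 with all libraries. Without replicate 1 with glutamine TNFRSF10B was at -0.68 (adjusted p from edgeR 6.75e-05), and the median of the arm turned to -0.04.

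Chaperones outside the ER had medians nearer 0: 0.03 over 15 cytosolic heat shock genes and 0.08 over 8 mitochondrial chaperones. None of the heat shock genes and 1 of the mitochondrial ones, TRAP1, passed 0.1, against 14.5% of all genes. TRAP1, the mitochondrial relative of HSP90B1, was lower without glutamine, at -0.44 (SE 0.11, adjusted p from edgeR 0.0741), and the cytosolic relative HSP90AB1 was at -0.35 (SE 0.13, 0.14). Both lists went both ways, with 8 heat shock genes above 0 and 7 below, and 5 mitochondrial ones above and 3 below. Groups did not overlap for 3 heat shock genes, all higher, and for 2 mitochondrial ones higher and 1 lower. Of all genes 34.2% did not overlap, 17.3% higher and 16.9% lower. Both medians fell below 0, to -0.08 and -0.02, without replicate 1 with glutamine, whereas that of the ER genes was 0.19.

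The same library moved the calls of every list. Without it, edgeR called 7 of the 22 other chaperones, all higher, and 5 of the 21 degradation genes, all higher. Of the translocation genes it called 5 higher and 4 lower, and of the sensors 4 higher and 2 lower. The PERK and ATF4 arm had 3 higher and 2 lower, the amino acid response 15 higher and 4 lower, the heat shock genes 2 higher and 4 lower and the mitochondrial chaperones 1 of each. These counts stand beside 41.3% of all genes. PDIA5 (0.99, adjusted p from edgeR 4.1e-05) and DERL3 (1.17, 3.44e-05), which did not pass with all libraries, were among the genes called higher.

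**Figure D4:**
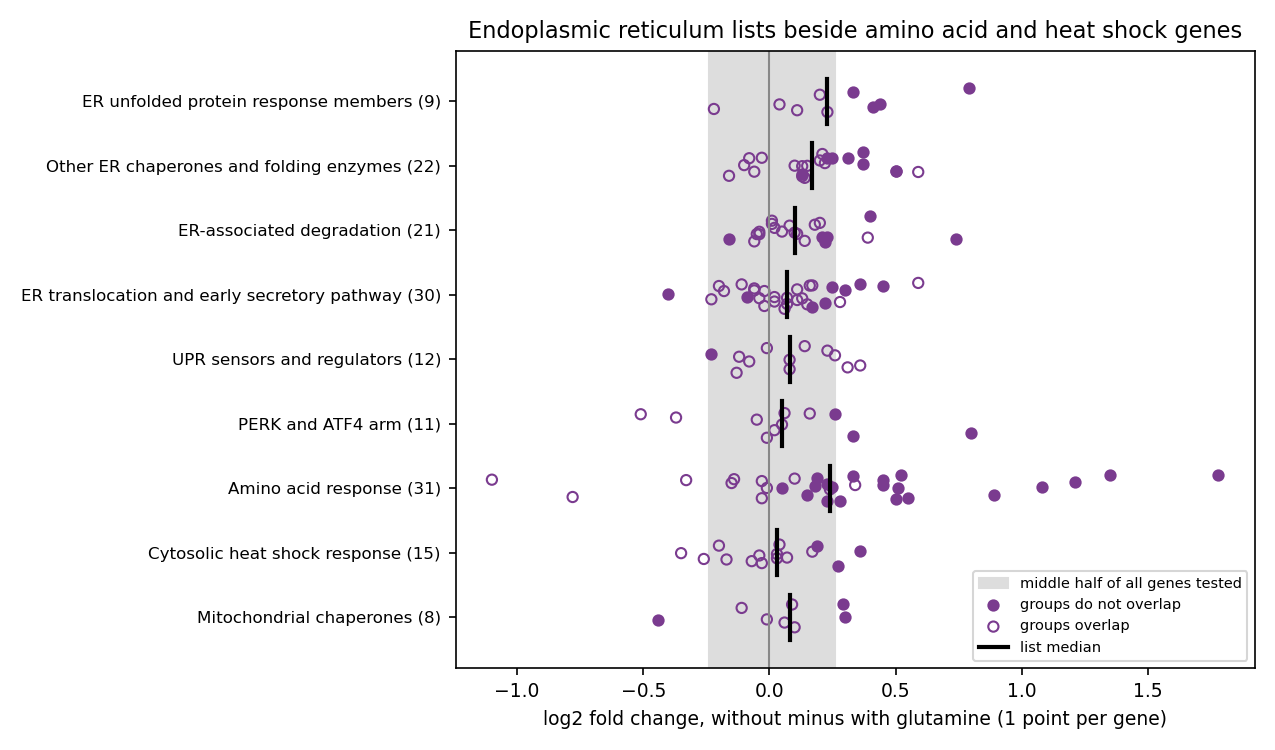
Log2 fold change of each tested gene, without minus with glutamine, by list (number tested in brackets), with filled points where the groups do not overlap, a black bar at the list median and the range from the lower to the upper quartile of all tested genes in grey. The ER genes have a median of 0.23 and the amino acid response genes 0.24, and the latter reach from -1.10 to 1.78.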

How the data were processed

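Per the labels' protocols, stranded mRNA libraries were read as single 50-nt ends. Raw counts per Ensembl gene were deposited by the authors, 1 column per library. The submitters' processing notes name cutadapt, Trim Galore, FastQC, STAR 2.5.2b, DESeq2 and GRCh38. The counting program, annotation and strand setting are not given in the sources used here, so overlapping genes and near-identical copies are uncertain. Column headings name days 0 and 9, but each sample's description ties the day 0 headings to cells with glutamine and the day 9 headings to cells without, all at day 9. Every direction rests on that. The deposited normalized table was not used.

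Groups and replicate numbers came from the titles. Symbols came from the reference name table, and positions and exon lengths from GENCODE 29 on GRCh38, which matched 56531 of 60107 IDs and all 213 list genes. EdgeR 4.0.16 (R 4.3.3; quasi-likelihood F test, legacy = FALSE, robust = FALSE, filterByExpr, TMM, Benjamini-Hochberg) tested 22613 genes holding 99.95% of counts. Each SE was taken from the fold and its F value (log2 fold change over root F). CPM are counts scaled to the TMM-adjusted library size. In simulated counts of this comparison over 22193 genes, 88.5% of 200 changed genes were recovered (78% of log2 changes of 1 and 99% of 2) with 15 false calls. Smaller changes, like those of most ER genes here, were not simulated. The changed genes were drawn from those above the median level, and no simulated library was set apart as replicate 1 with glutamine was. The recovery therefore does not carry over to the real libraries, where 1 gene was called.

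The ER genes, lists and tests were chosen with earlier results of these data known. Named genes are all 10, any sensor or PERK arm gene, the 3 highest and 3 lowest of each other list by log2 fold change, and those past 0.05; 1 gene within this rule is not reported here. HM13 and EEF1G were named after their values were seen. DESeq2 1.42.0, limma 3.58.1 (voom), 3 scalings, 2 filters, 2 edgeR settings, a replicate block and each library left out were tried.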

Additional observations from a re-analysis of the deposited data

How the results depend on the processing

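With all 6 libraries and edgeR, 0 of the 9 tested genes were called, and none under upper quartile scaling, DESeq2 size factors, library size only, no filter, a mean of 10 counts, the legacy or robust setting, limma-voom or the replicate block. DESeq2 called 3, and leaving out 1 library gave 0 to 4, the 4 without replicate 1 with glutamine. At an adjusted p under 0.1 the count of 3 became 2 with no filter (HERPUD1 at an edgeR adjusted p of 0.133), 0 with the replicate block, and ran from 0 to 5 with 1 library left out, 0 in each fit but the 1 without replicate 1 with glutamine. Over all genes, the 1 call became 0 under upper quartile scaling, library size only, the legacy setting, limma-voom and the replicate block, 2 with no filter, 3041 under DESeq2, and 0 to 9573 with 1 library left out. The 3285 genes under 0.1 became 1753 with no filter, 0 with the replicate block and 0 to 11428 with 1 library left out. Their split of 1650 higher and 1635 lower became 1326 and 2432 under upper quartile scaling. The cause was not tested.

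Across all tested genes, same-numbered libraries did not deviate together (correlations of -0.02, 0 and 0.03), so the numbers are not taken to pair them. In HSPA5, HSP90B1, CALR and DNAJB9, however, replicate 1 was the lowest of both groups. With the replicate block, edgeR adjusted p was 0.174 for HSPA5, 0.186 for HSP90B1 and 0.381 for CALR, none called. The median log2 fold change of the ER genes stayed between 0.169 and 0.356 in 16 alternatives. Of 144 values for single genes, 136 kept their direction and call, 7 gained a call (2 each for SDF2L1, PDIA4 and HERPUD1, 1 for ATF6) and 1 reversed, EDEM1 at -0.001 under upper quartile scaling. The fewest reads behind a tested ER gene were those of SDF2L1, at 348 to 872 counts.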
